A study of Mus musculus with 6 samples.

Results

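Chemokine transcripts were described in the livers of untreated mice, 3 TLR3-/- mice and 3 TLR3wt mice, each 3 months old and each measured on an array of its own. The genes were chosen by name as chemokines of the resting liver, with earlier results of these data known. The list is Cxcl9, Cxcl10, Cxcl1, Cxcl12, Cxcl13, Ccl2, Ccl5, Ccl6, Ccl9 and Ccl24. Each was read from a probe set that the array annotation pairs with that symbol alone, and each had 1 such probe set. They are 10 of 19938 genes with a probe set of a single symbol. Of the 10, 9 stood above the lowest deposited value of 5 on at least 1 array, and Ccl2 stood at 5 on all 6.

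The design text lists both genotypes under C57Bl/6, while the sample label of the TLR3-/- livers names the genotype alone. The mice were bred in the submitters' own SPF colony and no agent was given to either group. How the TLR3 allele was made, how often it was crossed to C57Bl/6 and whether the groups were littermates are not given in the sources used here. The values are log2 RMA signals of whole-liver RNA. RMA is a method that corrects the background of an array, gives the arrays a common distribution and combines the probes of a probe set.

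Chemokines are small secreted proteins that bind G protein-coupled receptors on leukocytes and set where these cells go. Those of the CXC class (Cxcl) have a residue between their leading pair of cysteines, and those of the CC class (Ccl) do not. In liver they are made by Kupffer cells, the resident macrophages, and by endothelial cells, stellate cells, lymphocytes and, under stimulation, hepatocytes. TLR3 binds double-stranded RNA in endosomes and signals through the adaptor TRIF to IRF3 and NF-kappaB, and Cxcl10 and Ccl5 are known targets of that route in stimulated cells. Cxcl9 is a classic target of interferon-gamma.

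The arrays were alike in coverage. Between 15081 and 15226 of 35557 probe sets per array stood above 5, and the 16639 probe sets above 5 on at least 1 array were tested. All 9 hepatocyte markers with a single-symbol probe set, albumin (Alb) and transthyretin (Ttr) among them, were above the floor on all 6 arrays. Tlr3 itself read 5 in every liver of both groups, so the genotype labels have no check in these data. Over all tested probe sets the median log2 difference, TLR3-/- minus TLR3wt, was 0.03, and 41.2% had a lower mean in TLR3-/- livers.

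Sequence just upstream of the genes is shown first for 4 members. Cxcl9 and Cxcl10 lie close together with 1 protein-coding gene between them and had lower means in TLR3-/- livers. Cxcl13 was also lower, and Cxcl1 differed little. The windows run from 250 bases before to 50 bases after the annotated start, 5′ to 3′ on the gene's own strand, and come from RefSeq (GRCm38.p6). They lie at chr5:92328030-92328329 (minus strand) for Cxcl9, chr5:92348840-92349139 (minus strand) for Cxcl10, chr5:95956689-95956988 (plus strand) for Cxcl13 and chr5:90890995-90891294 (plus strand) for Cxcl1. Capitals mark matches, on either strand, to GAAANNGAA (the core of an interferon-stimulated response element), TTCNNNGAA (a gamma-activated sequence), GGGNNNTTC (a form of the NF-kappaB site) and TATAAA (the core promoter element known as the TATA box).
Cxcl9: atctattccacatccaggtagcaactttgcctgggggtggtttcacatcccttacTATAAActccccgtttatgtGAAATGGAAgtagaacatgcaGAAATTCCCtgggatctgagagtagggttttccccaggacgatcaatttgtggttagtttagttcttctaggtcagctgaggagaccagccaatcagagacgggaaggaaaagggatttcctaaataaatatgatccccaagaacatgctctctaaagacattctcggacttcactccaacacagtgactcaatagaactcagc
Cxcl10: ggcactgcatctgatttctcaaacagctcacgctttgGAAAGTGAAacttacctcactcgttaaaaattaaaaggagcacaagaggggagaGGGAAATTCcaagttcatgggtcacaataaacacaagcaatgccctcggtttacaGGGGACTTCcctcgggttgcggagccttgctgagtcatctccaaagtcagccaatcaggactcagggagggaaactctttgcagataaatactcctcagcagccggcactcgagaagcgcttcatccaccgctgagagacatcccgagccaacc
Cxcl13: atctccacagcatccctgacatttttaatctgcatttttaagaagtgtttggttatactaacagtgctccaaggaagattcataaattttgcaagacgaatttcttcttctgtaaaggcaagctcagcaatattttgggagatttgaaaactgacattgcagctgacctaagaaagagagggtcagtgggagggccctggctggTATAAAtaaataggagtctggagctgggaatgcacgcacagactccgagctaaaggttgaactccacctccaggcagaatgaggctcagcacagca
Cxcl1: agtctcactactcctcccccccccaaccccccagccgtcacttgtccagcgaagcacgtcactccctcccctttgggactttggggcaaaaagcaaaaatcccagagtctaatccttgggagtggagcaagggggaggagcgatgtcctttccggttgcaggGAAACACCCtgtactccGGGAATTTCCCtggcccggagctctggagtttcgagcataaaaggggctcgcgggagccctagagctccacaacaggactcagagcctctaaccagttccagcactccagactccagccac

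The table of promoters matched 7 of the 10 genes, and did not match Ccl2, Ccl5 and Ccl24. GAAANNGAA was present in 2 of the 7 windows, those of Cxcl9 (175 bases before the start) and Cxcl10 (213 bases before it), and in 8.56% of 32851 windows of the same length. GGGNNNTTC was present in 4 of the 7, in Cxcl9, Cxcl10, Cxcl1 and Ccl9, and in 14% of all windows. In Cxcl1 there were 3 matches, of which those beginning 71 and 69 bases before the start overlap on opposite strands. TATAAA was present in 3 of the 7, Cxcl9, Cxcl13 and Ccl9, and in 13.6% of all windows. Its matches began 195 bases before the start in Cxcl9, 46 in Cxcl13 and 224, 94 and 92 in Ccl9. Whether any of them works as a TATA box was not tested. TTCNNNGAA was present in 0 of the 7 and in 8.3% of all windows. The windows of Cxcl12 and Ccl6 held none of these 4 letter strings. A match is a string of letters and not a measured binding site.

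The comparison asks whether chemokine transcripts of the resting liver differ with the TLR3 genotype. The means of Cxcl9, Cxcl10, Cxcl13 and Ccl5 were lower in TLR3-/- livers by 1.76-fold to 2.95-fold as deposited, with 2 of the values of Cxcl13 at the floor, and for each of these 4 genes every TLR3-/- liver lay below every TLR3wt liver. Ccl6, Ccl9, Ccl24, Cxcl1 and Cxcl12 overlapped between the groups, and the mean of Ccl6 was lower by a log2 difference of -0.42. No member passed limma's adjusted p of 0.05 over all tested probe sets (0 of 9). At an unadjusted limma p under 0.05 there were 5 of 9, all lower, with Cxcl13 and its 2 floor values among them. Over all tested probe sets, 0.186% passed the adjusted threshold, 5.25% were lower at an unadjusted p under 0.05 and 9.21% were higher. In 7.04% of tested probe sets every TLR3-/- liver lay below every TLR3wt liver, against 4 of the 9 members. The median log2 difference of the 9 members was -0.42, with Ccl24, whose TLR3-/- arrays were all at the floor, entered at the distance of its TLR3wt mean from 5. The genes were chosen with earlier results of these data known. These counts and the median therefore describe the 9 genes and are not a test of them as a group.

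**Figure D1:**
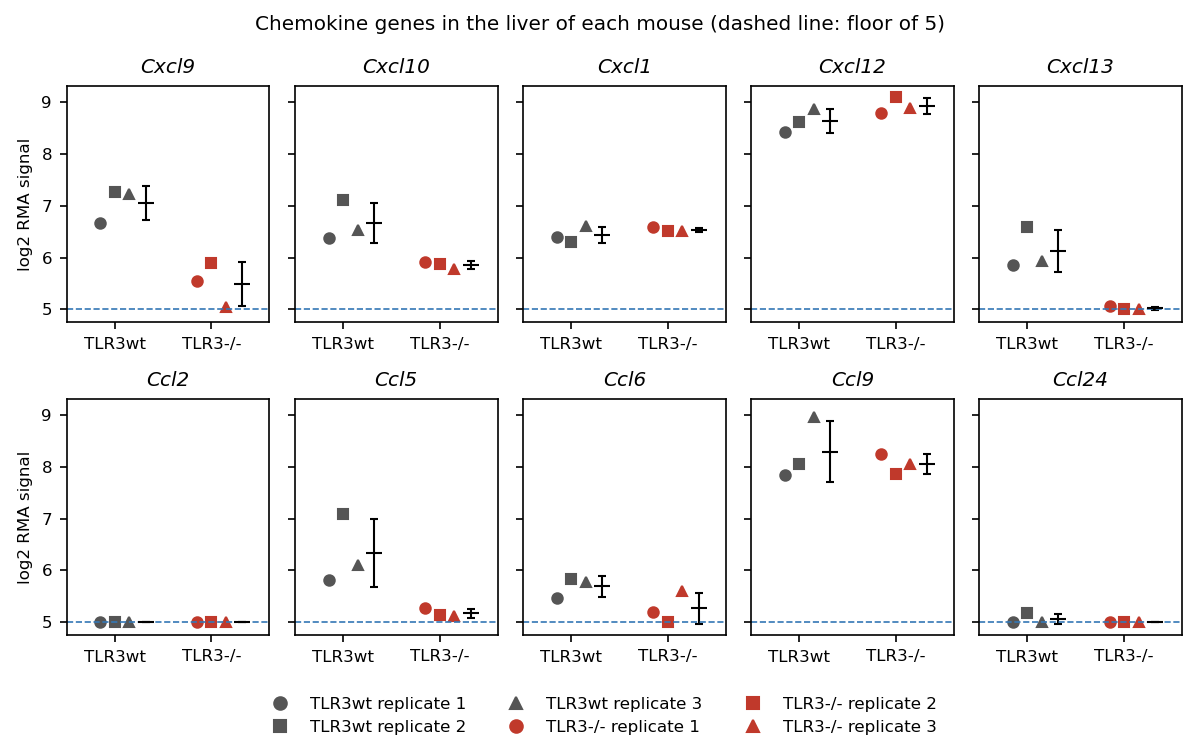
Log2 RMA signal of the 10 chemokine genes (vertical axis) in each of the 3 TLR3wt and 3 TLR3-/- livers (symbols), with the mean and SD of each group beside the symbols and the floor of 5 as a dashed line. Cxcl9, Cxcl10, Cxcl13 and Ccl5 did not overlap between the groups, and Ccl2 was at 5 in all 6 livers.

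Cxcl9 and Cxcl10 encode interferon-inducible ligands of CXCR3, the receptor that brings activated T cells and NK cells into tissue. Cxcl9 (probe set 10531407) had log2 signals of 6.67, 7.26 and 7.23 in TLR3wt replicates 1 to 3 and of 5.55, 5.89 and 5.05 in TLR3-/- replicates 1 to 3. The lowest TLR3wt liver stood above the highest TLR3-/- liver, and TLR3-/- replicate 3 was close to the floor. The group means were 5.49 ± 0.42 in TLR3-/- and 7.05 ± 0.33 in TLR3wt livers (SD, n = 3 each), a log2 difference of -1.56 (SE 0.25). This is 2.95-fold lower, with a 95% interval of 1.93 to 4.52 (limma unadjusted p = 0.000748, adjusted p = 0.112). Its difference held rank 15 from the lowest of the 16639 tested probe sets.

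Cxcl10 (10531415) had signals of 6.38, 7.11 and 6.53 in TLR3wt replicates 1 to 3 and of 5.92, 5.87 and 5.78 in TLR3-/- replicates 1 to 3. The TLR3-/- livers lay close together, and TLR3wt replicate 2 stood above the other TLR3wt livers. The means were 5.85 ± 0.07 and 6.67 ± 0.38 (SD, n = 3 each), a log2 difference of -0.82 (SE 0.19) or 1.76-fold lower, with an interval of 1.28 to 2.41 (limma unadjusted p = 0.00443, adjusted p = 0.169). Without TLR3wt replicate 2 the log2 difference was -0.60.

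The gene next to this pair, Cxcl11, is annotated as a transcribed pseudogene in the C57BL/6J reference. It stood at 5, 5 and 5.07 in TLR3wt replicates 1 to 3 and at 5.42, 5.27 and 5 in TLR3-/- replicates 1 to 3. These values touch the floor in both groups, and the difference of 0.21 did not pass (limma adjusted p = 0.448).

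Cxcl13 encodes the ligand of CXCR5, which draws B cells into follicles. Its probe set (10523359) read 5.85, 6.59 and 5.93 in TLR3wt replicates 1 to 3, and 5.05, 5 and 5 in TLR3-/- replicates 1 to 3. All 3 TLR3wt livers were above the floor, while in the TLR3-/- group 1 liver was barely above it and the other two were at it. The log2 difference was -1.10 (SE 0.19), or 2.15-fold lower with an interval of 1.55 to 2.98 (limma unadjusted p = 0.00117, adjusted p = 0.118). With values at the floor on the TLR3-/- side, this difference is understated to an unknown degree. The floor also takes away spread in that group, so the SE, the interval and the limma p cannot be relied on.

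Ccl5 encodes RANTES, a ligand of CCR1 known from T cells, NK cells and virus-stimulated cells. Its probe set (10389207) read 5.82, 7.08 and 6.11 in TLR3wt replicates 1 to 3, and 5.27, 5.14 and 5.11 in TLR3-/- replicates 1 to 3. TLR3wt replicate 2 was far above the other TLR3wt livers, and the groups still did not overlap without it. The means were 5.17 ± 0.09 and 6.34 ± 0.66 (SD, n = 3 each). The log2 difference was -1.16 (SE 0.31), 2.24-fold lower with an interval of 1.32 to 3.79 (limma unadjusted p = 0.00938, adjusted p = 0.199). Without TLR3wt replicate 2 it was -0.79.

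Ccl6, Ccl9 and Ccl24 are CC chemokines known from myeloid cells. Ccl6 and Ccl9 act through CCR1, and Ccl24 (eotaxin-2) attracts eosinophils through CCR3. On chromosome 11, Ccl5, Ccl9 and Ccl6 follow each other with no protein-coding gene between them in the GRCm38.p6 gene table, and their log2 differences were -1.16, -0.24 and -0.42. Ccl6 (10389222) read 5.46, 5.83 and 5.78 in TLR3wt replicates 1 to 3, and 5.20, 5 and 5.59 in TLR3-/- replicates 1 to 3. TLR3-/- replicate 3 lay within the TLR3wt range. The difference stood at the edge of the unadjusted threshold (limma unadjusted p = 0.04995, adjusted p = 0.346).

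Ccl9 (10389214) was well above the floor in every liver, with 7.85, 8.05 and 8.96 in TLR3wt replicates 1 to 3 and 8.25, 7.85 and 8.06 in TLR3-/- replicates 1 to 3. TLR3wt replicate 3 was highest and the other 5 livers overlapped. The log2 difference of -0.24 had a 95% interval of -0.95 to 0.48, and without TLR3wt replicate 3 the difference was 0.10. Ccl24 (10534493) was above the floor in 1 liver of 6, TLR3wt replicate 2 at 5.17, so it was tested only because of that liver. Ccl2 (10379511), the monocyte chemoattractant MCP-1, was at 5 in all 6, and no difference can be given for it.

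Cxcl1 and Cxcl12 had higher means in TLR3-/- livers, within overlapping ranges. Cxcl1 encodes KC, a neutrophil attractant acting on CXCR2. Its probe set (10523151) read 6.40, 6.30 and 6.61 in TLR3wt replicates 1 to 3, and 6.58, 6.51 and 6.51 in TLR3-/- replicates 1 to 3. The TLR3-/- values lay inside the TLR3wt range. The log2 difference of 0.10 had a 95% interval of -0.12 to 0.32, which leaves out a change of the size seen for Cxcl10. Cxcl12 encodes SDF-1, the stromal ligand of CXCR4 that holds haematopoietic cells in their niche. It (10541075) read 8.42, 8.62 and 8.87 in TLR3wt replicates 1 to 3, and 8.79, 9.11 and 8.89 in TLR3-/- replicates 1 to 3. The difference was 0.29, with an interval of -0.04 to 0.62 (limma unadjusted p = 0.0738, adjusted p = 0.388). Leaving out 1 mouse at a time, it ran from 0.18 to 0.41, and that of Cxcl1 from 0.03 to 0.19, each highest without TLR3wt replicate 3.

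**Figure D2:**
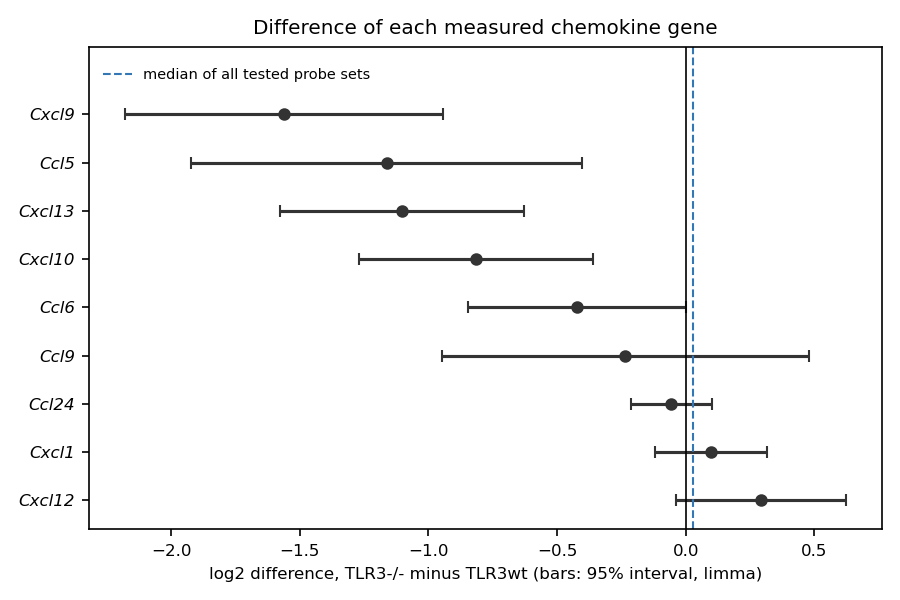
Log2 difference, TLR3-/- minus TLR3wt (horizontal axis), of the 9 measured chemokine genes, with 95% intervals from limma and the median of all tested probe sets (0.03) as a dashed line. Intervals of Cxcl9, Ccl5, Cxcl13 and Cxcl10 lie below 0, that of Ccl6 ends at 0, and those of Ccl9, Ccl24, Cxcl1 and Cxcl12 cross 0. The interval of Cxcl13 cannot be relied on, since its TLR3-/- values were at or barely above the floor.

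The members differed in which mouse was highest. Among TLR3wt livers, replicate 2 was highest for 6 of the 9 members, namely Cxcl9, Cxcl10, Cxcl13, Ccl5, Ccl6 and Ccl24. TLR3wt replicate 3 was highest for the other members, Cxcl1, Cxcl12 and Ccl9. TLR3wt replicate 1 was highest for 0 of the 9. Leaving out 1 mouse at a time, the log2 difference ran from -1.76 to -1.34 for Cxcl9, from -0.96 to -0.60 for Cxcl10, from -1.24 to -0.87 for Cxcl13 and from -1.42 to -0.79 for Ccl5. These 4 genes kept a lower mean in each of those 6 fits, and in each of them the unadjusted limma p was under 0.05. For Cxcl13 the p-values cannot be relied on, since its TLR3-/- values were at or barely above the floor. No fit brought any of the 4 genes past the adjusted threshold. The lowest adjusted p over those 6 limma fits was 0.101 for Cxcl9, 0.134 for Cxcl10, 0.105 for Cxcl13 and 0.151 for Ccl5.

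**Figure D3:**
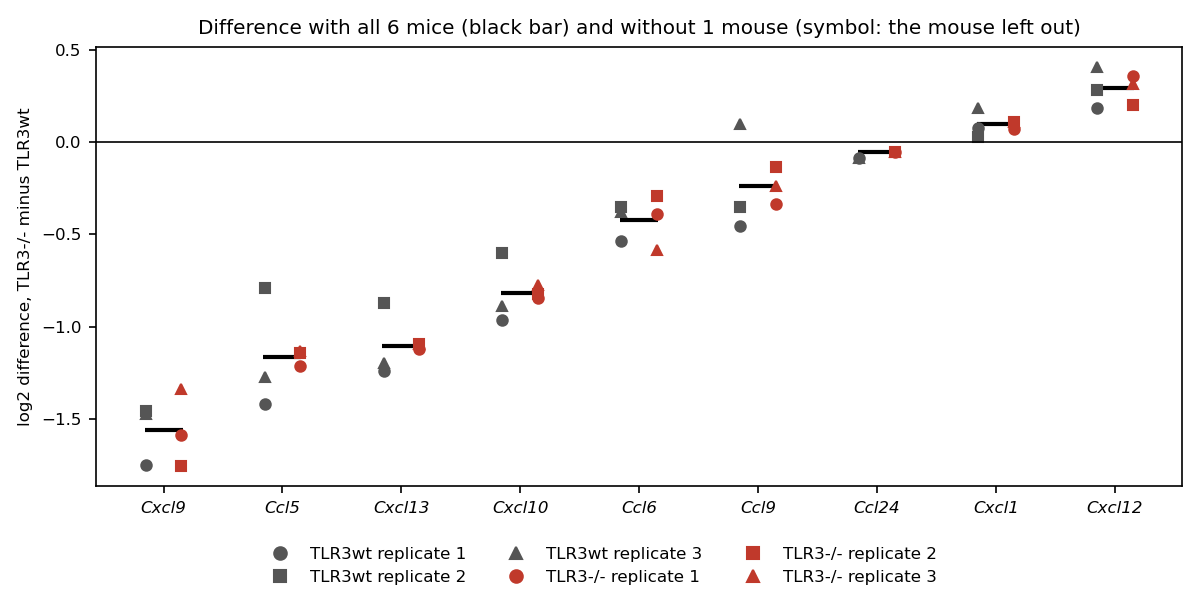
Log2 difference, TLR3-/- minus TLR3wt (vertical axis), for each measured chemokine gene with all 6 mice (black bar) and with 1 mouse left out (symbol of the mouse left out). Without TLR3wt replicate 2 the differences of Ccl5, Cxcl13 and Cxcl10 shrink to -0.79, -0.87 and -0.60, and without TLR3wt replicate 3 that of Ccl9 turns to 0.10.

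Other genes of the chemokine system were mostly at the floor. Of 40 listed chemokine genes, the 10 members included, 36 had a single-symbol probe set and 14 of these were above the floor on at least 1 array. Of the 10 other CXC chemokines 7 were at 5 on all arrays, among them Cxcl2, Cxcl5 and Cxcl14. Cxcl16, a transmembrane chemokine of macrophages and endothelium that binds CXCR6, read 5.29, 5.72 and 5.58 in TLR3wt and 5.23, 5.10 and 5.21 in TLR3-/- replicates 1 to 3. Its log2 difference was -0.35 (limma unadjusted p = 0.0221, adjusted p = 0.262). Ppbp, a platelet chemokine, was above the floor in TLR3wt replicate 2 alone, at 5.42.

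Of 20 other CC, XC and CX3C chemokines, 16 had a single-symbol probe set, and 14 of those stood at 5 on all 6 arrays, Ccl3, Ccl4 and Ccl7 among them. Ccl19, a ligand of CCR7, had a log2 difference of -0.24 and Ccl25, a ligand of CCR9, one of 0.06 (limma adjusted p = 0.365 and 0.816). Across both lists of other chemokines, 0 of 5 tested genes passed the adjusted threshold and 1, Cxcl16, was lower at an unadjusted limma p under 0.05. Of all tested probe sets, 5.25% were lower at that p.

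The receptors of these ligands gave almost no signal. Of 17 chemokine receptor genes with a single-symbol probe set, 16 were at 5 on all 6 arrays, including Cxcr3, Cxcr5, Ccr1 and Ccr2, the receptors of Cxcl9 and Cxcl10, of Cxcl13, of Ccl5 and of Ccl2. Cxcr4, the receptor of Cxcl12, was at 5, 5.19 and 5.16 in TLR3wt replicates 1 to 3 and at 5 in all 3 TLR3-/- livers (limma adjusted p = 0.484). Of 5 atypical receptors, which bind chemokines without the usual signal, 3 were at the floor on all arrays. Ackr2 and Ackr4 had log2 differences of 0.09 and 0.04 with most values at the floor (limma adjusted p = 0.618 and 0.761).

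In each list of genes on the routes that induce chemokines, 0 passed limma's adjusted threshold. Of 9 tested genes of TLR3-TRIF signalling, 4 were lower and 5 higher, with a median log2 difference of 0.05. Irf7, an interferon-inducible transcription factor, had a difference of -0.38 and was the 1 gene of them at an unadjusted limma p under 0.05 (adjusted p = 0.284). The NF-kappaB subunit gene Rela and the kinase gene Tbk1 had differences of 0.12 and 0.08. For these 2 genes every TLR3-/- liver lay above every TLR3wt liver, and for 0 of the 9 every TLR3-/- liver lay below. Of 7 tested genes of interferon-gamma signalling, 5 were lower, with a median of -0.11, and Ifng itself was at 5 on all arrays. In 2 of the 7 every TLR3-/- liver lay below every TLR3wt liver, in 1 every TLR3-/- liver lay above, and 1 was lower at an unadjusted limma p under 0.05. Of all tested probe sets, 7.04% lay wholly below and 5.25% were lower at that p. The share lying wholly above was not counted, so neither list has a background for it. Irf8, a transcription factor of myeloid cells, read 5.91, 5.89 and 5.97 in TLR3wt and 5.60, 5.63 and 5.66 in TLR3-/- replicates 1 to 3, a difference of -0.29 (limma unadjusted p = 0.00128, adjusted p = 0.122). The kinase gene Jak2 had a difference of 0.20 and the receptor gene Ifngr1 one of -0.27.

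Among cytokines and receptors that induce chemokines, Tnf, Il1a, Il6 and Ifnb1 were at 5 on all 6 arrays. Il1b, an inflammatory cytokine of macrophages, read 5.59, 5.71 and 6.24 in TLR3wt replicates 1 to 3 and 5 in all 3 TLR3-/- livers, a mean at least 1.80-fold lower. It was tested only because the TLR3wt livers were above the floor, and the TLR3-/- side has no spread, so its limma p (unadjusted 0.00205, adjusted p = 0.141) supports nothing beyond that bound. The TNF receptor gene Tnfrsf1b had a log2 difference of -0.27 and the interferon receptor gene Ifnar1 one of 0.18 (limma adjusted p = 0.203 and 0.354).

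Marker genes of cell types that make these chemokines were read on the same arrays. In whole liver, fewer cells of a type and less RNA per cell cannot be told apart, for the chemokines as for the markers. Of 15 markers of Kupffer cells and macrophages, 14 had lower means in TLR3-/- livers and 13 did not overlap, with a median log2 difference of -0.80. None of the 15 passed the adjusted threshold, and 13 were lower at an unadjusted limma p under 0.05. Over all tested probe sets, 7.04% had every TLR3-/- liver below every TLR3wt liver, and 5.25% were lower at that unadjusted p. The mean log2 signal of the 15 was 7.10, 7.53 and 7.32 in TLR3wt replicates 1 to 3 and 6.70, 6.29 and 6.80 in TLR3-/- replicates 1 to 3. The phosphatidylserine receptor gene Timd4, the adhesion receptor gene Adgre1 and the scavenger receptor gene Marco had differences of -0.90, -1.00 and -1.08 (limma adjusted p = 0.0994, 0.114 and 0.138). None of the 15 stood at the floor on all arrays. Fcgr1, among the 13 of both counts, was at 5 in all 3 TLR3-/- livers. It was tested only because the TLR3wt livers were above the floor. The marker mean was highest in TLR3wt replicate 2, as were 6 of the chemokine genes. Within the TLR3-/- group it was lowest in replicate 2. In that liver Ccl6 and Ccl9 were at their lowest of the group and Cxcl9 and Cxcl12 at their highest. The part of these macrophage genes in the chemokine differences was not tested.

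Lymphocyte and granulocyte markers were near or at the floor. Of 13 T and NK cell markers with a single-symbol probe set, 11 were at 5 on all 6 arrays, among them Cd3e, Cd4, Ncr1 and Gzmb. Prf1 and Cd8a, of cytotoxic cells, reached at most 5.13 and 5.05, both in TLR3wt replicate 2, and their differences were -0.05 and -0.02. All 7 B and plasma cell markers and all 9 monocyte and neutrophil markers read stood at 5 on every array. Of 8 dendritic cell markers 5 were at the floor, and Bst2, Zbtb46 and Clec9a had differences of -0.29, -0.23 and -0.04. Bst2 is itself an interferon-inducible gene of many cells.

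Markers of the other liver cells had small median differences. The median log2 difference was -0.02 over 10 endothelial markers, -0.06 over 9 tested stellate cell and fibroblast markers and -0.01 over 9 tested hepatocyte markers, with 0 of each list past the adjusted threshold. At an unadjusted limma p under 0.05, 2, 2 and 3 markers of these lists were lower and 0 higher. Every TLR3-/- liver lay below every TLR3wt liver for 2, 3 and 3 markers, and above for 1 hepatocyte marker. Over all tested probe sets, 5.25% were lower and 9.21% higher at that p, and 7.04% lay wholly below. The share lying wholly above was not counted. Of the endothelial markers 5 were lower and 5 higher, and Pecam1, Lyve1 and Fcgr2b had differences of -0.24, -0.56 and 0.29. Of the stellate cell and fibroblast markers 6 were lower and 3 higher. The collagen genes Col3a1, Col1a1 and Col1a2 had differences of -0.55, -0.49 and -0.28, and the stellate cell genes Lrat and Reln and the proteoglycan gene Dcn, named after their values were seen, had 0.21, 0.17 and 0.17. Of the hepatocyte markers 6 were lower and 3 higher. The 3 with the smallest unadjusted p were all lower, Tat by a difference of -0.39, Hnf4a of -0.26 and Pck1 of -0.61, while Cyp2e1, named after its value was seen, had the highest, 0.25. The mean signal of the hepatocyte markers was 11.65 to 11.71 in TLR3-/- and 11.74 to 11.85 in TLR3wt livers.

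**Figure D4:**
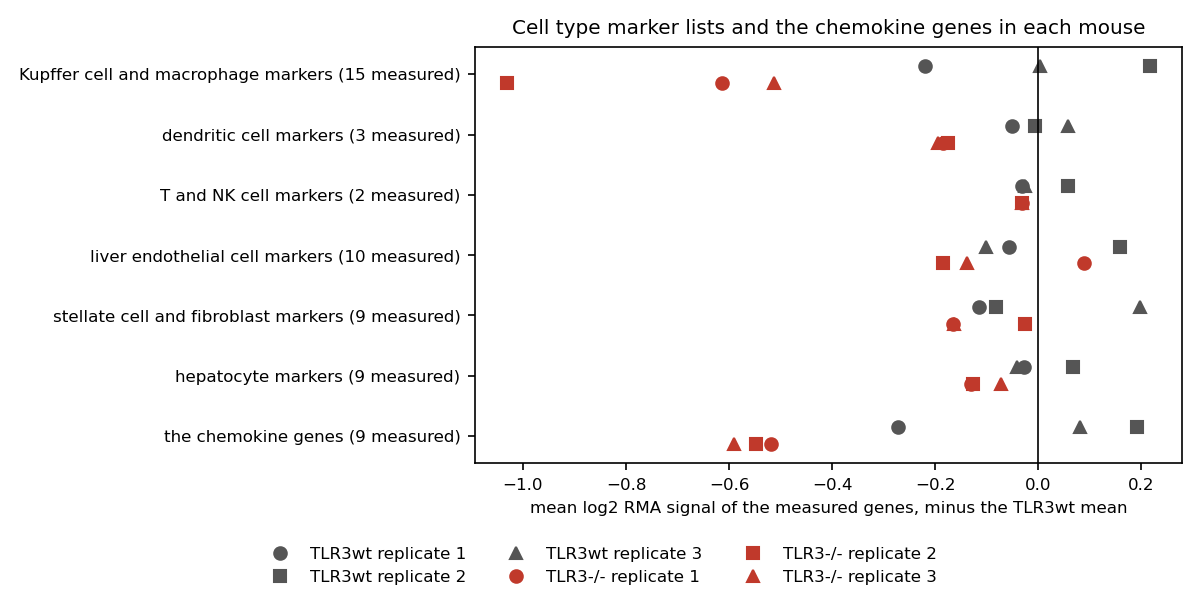
Mean log2 RMA signal of the measured genes of each list in each liver, relative to the TLR3wt mean of that list (horizontal axis), for 6 cell type marker lists and the 9 measured chemokine genes (rows). Kupffer cell and macrophage markers separate the groups by the widest gap of the marker lists shown. Dendritic cell and hepatocyte markers also separate them, and T and NK cell markers meet at the floor. Endothelial markers overlap, as do stellate cell and fibroblast markers.

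The genes whose values over the 6 livers were most like those of Cxcl9, the member with the largest difference as deposited (that of Cxcl13 is cut by the floor), were ranked by Pearson correlation among 10338 other genes. The highest were Slc5a3, a myo-inositol transporter gene, with 0.995, Fgd2, a guanine nucleotide exchange factor gene of antigen-presenting cells, with 0.993, and Ecscr, an endothelial gene, with 0.991. Mpp7, a scaffold protein gene, and Ppl, which encodes periplakin, followed with 0.988 and 0.983. Their log2 differences were -0.77, -0.38, -0.21, -0.43 and -0.54. The 6 livers fall into groups that do not overlap for Cxcl9, and these values are the highest of many, so they are a description with no test. Both Slc5a3 and Cxcl9 were lowest in TLR3-/- replicate 3 and highest in TLR3wt replicate 2.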

How the data were processed

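Per the submitters' processing notes, the authors used RMA and the Affymetrix Expression Console, and the deposited log2 signals were taken as they are. The lowest value is exactly 5 on each array, and the sources used here do not give what set it. Symbols came from the array annotation (21789 probe sets with 1 symbol, 1621 with several, 12147 with none), updated by gene identifier to the GRCm38.p6 table. The table held 0 columns of other samples, and groups came from the titles.

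All 16639 probe sets above 5 on at least 1 array were fitted with limma 3.58.1 in R 4.3.3 (lmFit and eBayes, genotype as the only term, two-sided, Benjamini-Hochberg over all of them, threshold 0.05). The procedure was tried on simulated data, with differences added only to probe sets whose mean lay well above the floor. That trial does not cover differences of genes near the floor. Each gene was read from its 1-symbol probe set with the highest mean. The spread is between 3 mice a group, which limits the precision.

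The members, the gene lists, the motifs and the filter were chosen with earlier results of these data known. Named genes were all members, called genes and the 3 with the smallest unadjusted p of each list, and the 5 genes most like the member with the largest difference. Genes named as examples at the floor, and Alb and Ttr, were picked by role. Alternatives were other filters, scalings, variance models, array weights, a replicate block and leaving out each mouse.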

Additional observations from a re-analysis of the deposited data

How the results depend on the processing

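No member passed limma's adjusted threshold in any of the 14 alternatives, and the lowest adjusted p was 0.0663, for Cxcl9 when only probe sets exceeding 5 in every liver were fitted (range 0.0663 to 0.481 over its alternatives). The direction of 8 of the 9 members held wherever they were measured, and Ccl9 ran from -0.45 to 0.10 without 1 mouse, turning to 0.10 without TLR3wt replicate 3. For Ccl24 this carries no weight, since its TLR3-/- values were all at the floor and only TLR3wt replicate 2 was above it. Members at an unadjusted p under 0.05, a count added after the data were seen, numbered 5, were 3 among probe sets that exceed 5 in every liver, where Cxcl13, Ccl6 and Ccl24 drop out, and ran from 4 to 6 without 1 mouse. The 6 came without TLR3wt replicate 3 and were 4 lower and 2 higher: Cxcl1 and Cxcl12 entered as higher (limma unadjusted p = 0.0384 and 0.0175) and Ccl6 left. Array weights with all 6 mice also gave 6 members, with Cxcl12 added as higher (limma unadjusted p = 0.03996). Ccl6 was the member that left this count under all deposited probe sets (limma unadjusted p = 0.11) and under renewed quantile normalisation (0.054). Its unadjusted limma p also exceeded 0.05 without TLR3wt replicate 2 (0.137) or 3 (0.121) and without TLR3-/- replicate 1 (0.119) or 2 (0.142). The median of the members, -0.42, ran from -0.59 to -0.29 without 1 mouse.

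Calls over all probe sets moved more. From 31 (23 higher, 8 lower) they went to 0 with all deposited probe sets (2018 at an unadjusted limma p under 0.05), 18 for those above 5 in every liver, 1 with single-symbol probe sets, 9 after renewed quantile normalisation, 14 after centring (8 higher, 6 lower) and 0 to 13 without 1 mouse (0 without TLR3wt replicate 1 or 2 or TLR3-/- replicate 3, with 2577, 1771 and 2203 at an unadjusted p under 0.05). Centring also turned the split at an unadjusted p under 0.05 from 1533 higher and 873 lower to 1104 and 1153. The titles number the mice of both groups 1 to 3. Deviations of same-numbered mice correlated at 0.05, -0.01 and -0.06, and those of differently numbered mice at -0.12 to 0.14. With 3 mice a group this cannot decide whether the numbers pair the mice. A fit with the replicate block gave 4 calls, with 0 members among them and 5 members at an unadjusted p under 0.05. Averaging the probe sets of a gene was not run, since each member has 1. The floor of 5 limits what can be said of Ccl2, Ccl24, Cxcl13 and the receptors.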
